A study of Homo sapiens with 3 samples.

Results

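The annexins are a family of calcium-dependent proteins that bind acidic phospholipids, and 10 of their genes were followed across HepG2/wild cells, HepG2/metR cells and HepG2/metR cells given oxamate. Members were taken by gene symbol, 10 of the 25270 symbols in the deposited tables. ANXA1 was chosen from its measured values, namely its large rise in HepG2/metR cells and its decrease with oxamate, and the other members for their family name. The values of ANXA1 in these comparisons are therefore a description, and nothing is supported with them.

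HepG2 is a human hepatocellular carcinoma line. HepG2/wild is the untreated parental line, HepG2/metR is a line of cells that survived exposure to metformin, an inhibitor of mitochondrial complex I, for more than 5 months, and the third group is HepG2/metR given oxamate, an inhibitor of lactate dehydrogenase, at 40 mM for 24 h. Total RNA was sequenced with 1 library per group (3 in all), so no difference below has a replicate check, no p-value is given and no neighbouring levels can be told apart by replicate spread. HepG2/metR cells are a selected population, which limits them as a model of lactate alone. In bulk libraries, fewer cells of a type and less RNA per cell cannot be told apart.

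Each annexin carries a conserved core of repeats that docks on membranes when calcium rises, and a variable N-terminal tail that sets its partners. Annexins are known for membrane repair, vesicle traffic and the organization of the membrane-cytoskeleton border. ANXA1 inhibits phospholipase A2 and is a ligand of the formyl peptide receptor FPR2, ANXA2 binds S100A10 and gathers plasminogen and its activator at the cell surface, and ANXA5 binds exposed phosphatidylserine. In liver, ANXA4 is best known from the biliary epithelium, whereas ANXA10 and ANXA13 are best known from gastric and intestinal epithelium.

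The promoters of ANXA1, ANXA2 and ANXA3 are shown because these genes had the 2 largest increases and the largest decrease among the 10 members in HepG2/metR cells on the scale used below. Each sequence holds the 250 bases before the transcription start in RefSeq (GRCh38.p14), a newer build than the hg19 named for the deposited values, and capitals mark matches to any of 5 motifs searched on both strands, namely the TATA box (TATAAA), the CCAAT box (CCAAT), the AP-1 motif (TGANTCA), the GC box (GGGCGG) and an E2F core (GCGGGAA).
ANXA1, chr9:73151615-73151864, plus strand: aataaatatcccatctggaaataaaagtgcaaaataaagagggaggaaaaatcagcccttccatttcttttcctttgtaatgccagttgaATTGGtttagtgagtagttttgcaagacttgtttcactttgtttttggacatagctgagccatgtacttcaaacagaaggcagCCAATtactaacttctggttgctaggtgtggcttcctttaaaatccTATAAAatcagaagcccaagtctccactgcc
ANXA2, chr15:60397987-60398236, minus strand: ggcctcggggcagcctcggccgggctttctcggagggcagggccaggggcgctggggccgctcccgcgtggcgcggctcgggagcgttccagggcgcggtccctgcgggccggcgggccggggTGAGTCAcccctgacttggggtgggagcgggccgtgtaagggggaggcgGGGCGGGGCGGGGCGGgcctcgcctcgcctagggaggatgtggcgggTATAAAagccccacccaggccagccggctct
ANXA3, chr4:78551520-78551769, plus strand: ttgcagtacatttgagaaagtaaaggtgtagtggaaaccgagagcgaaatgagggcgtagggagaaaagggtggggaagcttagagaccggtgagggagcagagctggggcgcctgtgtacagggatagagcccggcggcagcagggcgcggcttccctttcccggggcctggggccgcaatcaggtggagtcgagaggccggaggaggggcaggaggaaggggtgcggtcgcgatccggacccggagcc

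A TATAAA match began 31 bases before the start in ANXA1 and 31 bases before it in ANXA2. The windows otherwise had little in common, since ANXA1 was 38.4% G and C with 2 CCAAT matches and no GC box, whereas ANXA2 was 78.0% G and C with 1 AP-1 match and 3 overlapping GC boxes in a row. ANXA3 held none of the 5 motifs. No window was searched for ANXA13, because 1 chromosome was left out of the member search, though not of the count over all windows. The other 9 of the 10 members had 13 windows in RefSeq. Of these windows 4 held TATAAA (ANXA1, ANXA2, ANXA10 and 1 start of ANXA11), 4 held CCAAT, 1 held the AP-1 motif, 7 held a GC box and 0 held the E2F motif. Among all 35116 windows of the same length the shares were 10.7% for TATAAA, 32.0% for CCAAT, 6.57% for the AP-1 motif, 42.6% for the GC box and 5.52% for the E2F motif. A match is a description of the letters and not a binding site.

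The deposited value was taken as log2(FPKM + 1), where FPKM is the fragment count normalized to transcript length and library size. Levels below are back-transformed to FPKM, a per-length scale. Changes are differences of log2(FPKM + 1), which understate the change of low genes. The libraries summed to 562382 FPKM in HepG2/wild, 534646 in HepG2/metR and 473773 with oxamate. The number of reads is unknown, but the smallest values gave the HepG2/metR library 1.22 times and the oxamate library 1.24 times the depth of the HepG2/wild library. The labelled cell type was checked by 11 hepatocyte markers, which summed to 32574 FPKM in HepG2/wild, 14.0 in HepG2/metR and 11.3 with oxamate. All 11 were lower by 2-fold or more in HepG2/metR, against 17.6% of genes with a mean of at least 1 FPKM, and in that library 9 of 11 were under 1 FPKM and 3 (APOA1, TTR and FGA) were listed at 0. Of 8 mesenchymal markers 5 were measurable, of which VIM and THY1 were higher and FN1 lower in HepG2/metR, while COL1A1, COL1A2 and COL3A1 stayed under 1.3 FPKM in every library. Of 4 biliary markers KRT7 was higher and KRT19, SOX9 and EPCAM were lower, and the 4 endothelial markers summed to at most 0.328 FPKM in any library. Of 4 leukocyte markers, PTPRC and CD3E, the pan-leukocyte and T-cell genes, stayed under 0.05 FPKM in every library. CD14 was listed at 2.19 FPKM in HepG2/wild, 0.715 in HepG2/metR and 0.607 with oxamate, and CD68 at 35.7, 43.0 and 31.0. Neither of these 2 measurable markers passed 2-fold on the log2(FPKM + 1) scale. In FPKM, CD14 was 3.06-fold higher in HepG2/wild than in HepG2/metR. The part that the loss of hepatocyte expression has in the annexin differences was not tested, and a change of the cells under metformin and cultures of unlike origin cannot be told apart.

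In HepG2/metR cells the make-up of the family was different from that in parental cells. ANXA1 and ANXA2 became the most abundant annexin mRNAs, ANXA3 and ANXA4 were lower, and ANXA5, ANXA6 and ANXA7 stayed within 2-fold of the parental level. The summed annexin level was 589 FPKM in HepG2/wild, 3534 in HepG2/metR and 2752 with oxamate, or 0.105%, 0.661% and 0.581% of all FPKM. A mean of at least 1 FPKM over the libraries was required of a gene, and 8 of the 10 members and 12210 of all genes passed. Of the 8 members that passed, 3 were higher by 2-fold or more in HepG2/metR, against 16.6% of all genes that passed. In the other direction 2 were at least 2-fold lower, against 17.6%. The median difference of the 8 members that passed was 0.47, beside 0.02 over all genes that passed. Nothing is read from these counts, because ANXA1 was selected on this comparison.

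**Figure D1:**
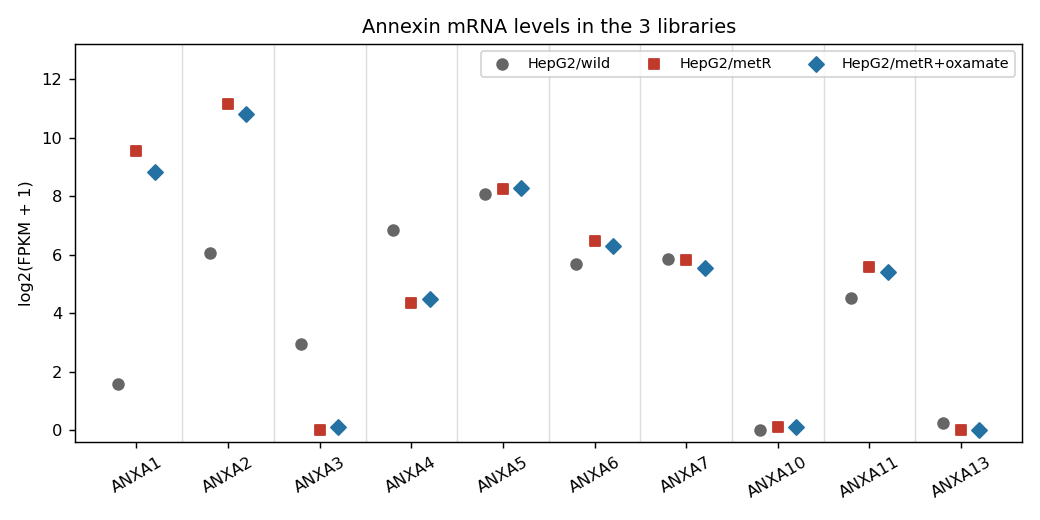
Level of each annexin mRNA as log2(FPKM + 1) on the y axis, with the 10 genes on the x axis and 1 point for each of the 3 libraries (no replicates, so no error bars). ANXA1 and ANXA2 lie far higher in both HepG2/metR libraries, ANXA3 and ANXA4 lie lower, and ANXA10 and ANXA13 are near 0 throughout.

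ANXA1 was listed at 2.01 FPKM in HepG2/wild, 754 in HepG2/metR and 448 with oxamate. Both HepG2/metR libraries were thus far above the parental library, and the oxamate library lay between the other 2. The difference between HepG2/metR and HepG2/wild was 7.97 on the log2(FPKM + 1) scale, the 9th largest of 12210, and the ratio of FPKM was 376. Among all symbols in the table ANXA1 moved from the 10454th to the 111th highest level.

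ANXA2 was listed at 66.1, 2268 and 1806 FPKM in the same order. It was well expressed in the parental library and was the 24th highest of all symbols in HepG2/metR. Its difference was 5.08 on the log2(FPKM + 1) scale, the 93rd largest, with a ratio of 34.3. The processed pseudogene ANXA2P2 was listed at 0.449, 25.2 and 19.9 FPKM, between 0.680% and 1.11% of ANXA2. Of the 50-base words in the ANXA2P2 transcript, 59.2% also occur in ANXA2 transcripts of GENCODE release 29, so reads of these genes may have been exchanged and the ANXA2P2 values are uncertain. No pair among the 10 members shared such a word in 45 pairs compared.

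ANXA11, which binds S100A6 and links RNA granules to lysosomes, was listed at 21.9, 46.9 and 41.2 FPKM. Its difference in HepG2/metR was 1.06 on the log2(FPKM + 1) scale, barely past 2-fold. ANXA6, the annexin with a doubled core, was listed at 51.0, 87.6 and 78.3 FPKM and had a difference of 0.77, short of 2-fold. These genes thus lay on either side of the threshold with similar values.

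ANXA4 was the 2nd most abundant annexin in HepG2/wild at 115 FPKM, and was listed at 19.6 in HepG2/metR and 21.3 with oxamate. It was 5.87-fold higher in the parental library than in HepG2/metR, a difference of -2.49 on the log2(FPKM + 1) scale. ANXA3, known from neutrophils and from tumour cells, was listed at 6.74 FPKM in HepG2/wild, at 0 in HepG2/metR and at 0.0946 with oxamate. It counted as lower at -2.95 on the log2(FPKM + 1) scale, but no fold is given against a value listed at 0. The size of this difference is set by the pseudocount, since it was -6.10 with a pseudocount of 0.1.

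ANXA5 was listed at 269, 302 and 311 FPKM and was the most abundant annexin of the parental library. ANXA7, also called synexin, was listed at 57.1, 56.0 and 45.8 FPKM. Their differences in HepG2/metR, 0.17 for ANXA5 and -0.03 for ANXA7 on the log2(FPKM + 1) scale, were the smallest of the members that passed. The last members failed the filter on low values. ANXA10 was listed at 0, 0.0825 and 0.0809 FPKM, and ANXA13 at 0.188, 0 and 0 FPKM, and no change is given for either.

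**Figure D2:**
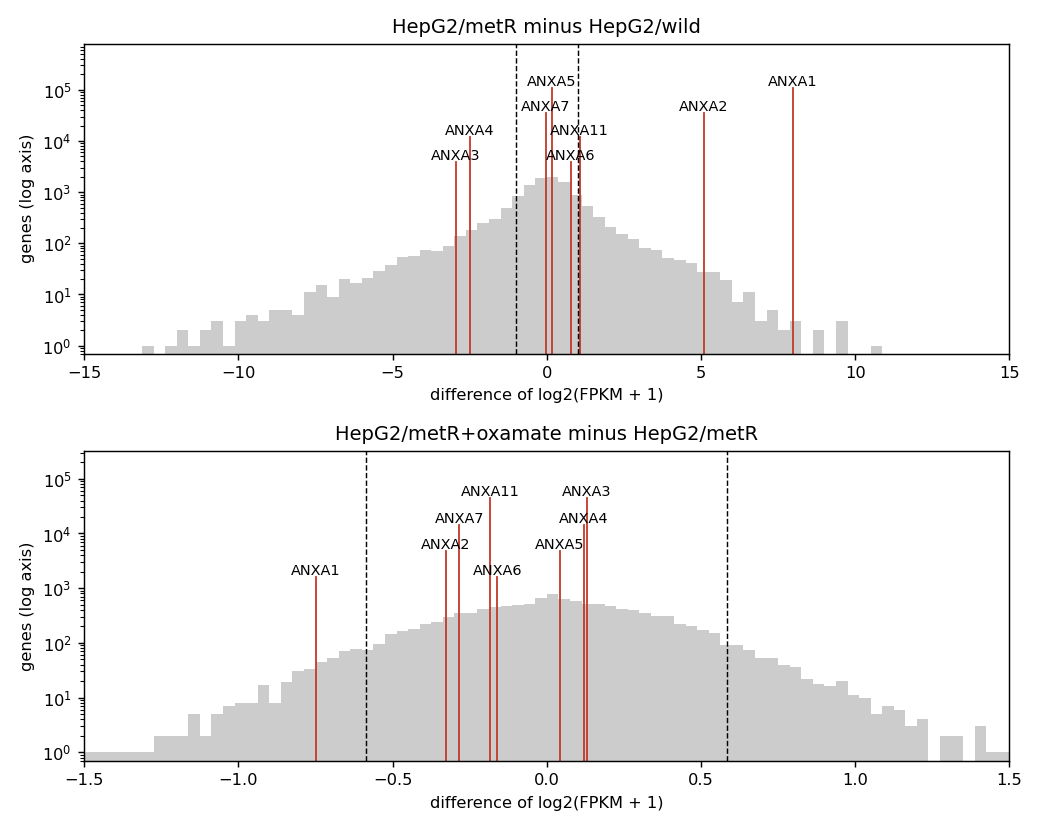
Histograms of the difference of log2(FPKM + 1) over the 12210 genes that passed the filter (x axis, log2 units; y axis, number of genes on a log axis), with red lines at the 8 annexins that passed and dashed lines at 2-fold (top, HepG2/metR minus HepG2/wild) and 1.5-fold (bottom, oxamate minus HepG2/metR; 49 genes lie outside the axis). ANXA1 at 7.97 and ANXA2 at 5.08 lie in the right tail of the top panel, and ANXA1 at -0.75 is the only annexin past a dashed line in the bottom panel.

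The order of the levels changed accordingly. From highest to lowest the parental order was ANXA5, ANXA4, ANXA2, ANXA7, ANXA6, ANXA11, ANXA3, ANXA1, ANXA13 and ANXA10. In HepG2/metR it was ANXA2, ANXA1, ANXA5, ANXA6, ANXA7, ANXA11, ANXA4 and ANXA10, with ANXA3 and ANXA13 at 0, and the first 7 places were the same with oxamate. ANXA5 made up 45.7% of the summed annexin FPKM in HepG2/wild and 8.56% in HepG2/metR. ANXA2 went the other way, from 11.2% to 64.2%, and ANXA1 from 0.341% to 21.3%. ANXA4 went from 19.5% to 0.554%.

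**Figure D3:**
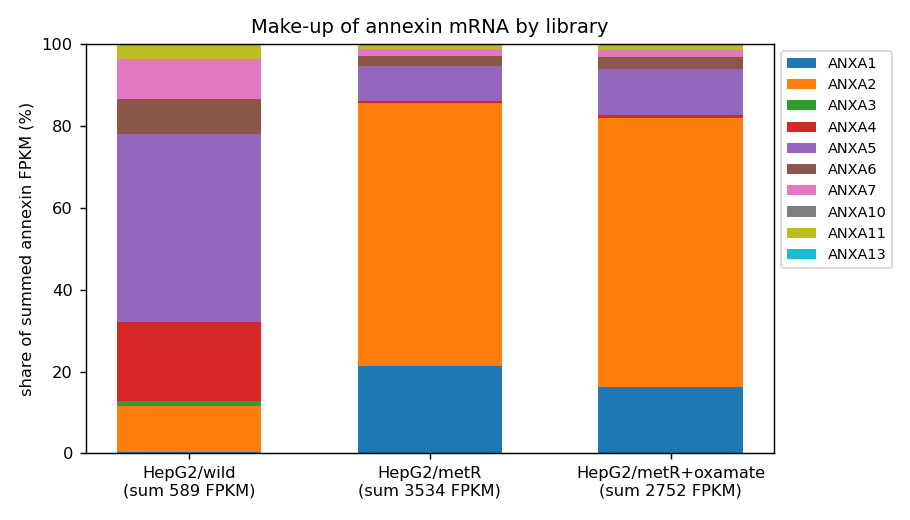
Share of each gene in the summed annexin FPKM (y axis, percent) in the 3 libraries (x axis, with the sum in FPKM), 1 stacked bar per library. ANXA5 and ANXA4 fill most of the HepG2/wild bar, and ANXA2 and ANXA1 fill most of the bars of HepG2/metR with and without oxamate.

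The second comparison asked which annexin mRNAs were altered when lactate production was inhibited with oxamate. Only ANXA1 passed 1.5-fold, the threshold in the study's methods, and it was the member selected on this value. With oxamate 1 of the 8 members that passed was at least 1.5-fold lower, against 3.82% of all genes that passed. In the other direction 0 were at least 1.5-fold higher, against 4.30%. The median difference of the 8 members that passed was -0.17, beside 0.02 over all genes that passed. This comparison shares the HepG2/metR library with the first one, so an error in that library would move a gene in both.

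ANXA1 was 1.68-fold higher in HepG2/metR than in the oxamate library, a difference of -0.75 on the log2(FPKM + 1) scale and the 186th largest fall of 12210. With oxamate ANXA1 was still listed at 223 times its parental FPKM. ANXA2 had a difference of -0.33, and it stayed at 27.3 times its parental FPKM. ANXA7 had a difference of -0.28, ANXA11 of -0.18 and ANXA6 of -0.16, while ANXA3 had 0.13, ANXA4 0.12 and ANXA5 0.04. None of these 7 values passed 1.5-fold (0.58 on this scale).

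The scaling of the libraries decides the call of ANXA1. When the libraries were brought to an equal total FPKM its difference with oxamate was -0.58, just short of 1.5-fold. The oxamate library had the lower total, so this scaling raised its values against HepG2/metR. The median of all genes that passed moved by 0.14. The scaling also turned the split of those genes from 525 higher and 466 lower to 1184 higher and 192 lower. Relative to the median of all genes the ANXA1 difference was -0.77 as deposited and -0.74 under the same total. Under the same total the differences of ANXA2 and ANXA7 shrank to -0.15 and -0.11, while those of ANXA4 and ANXA5 became 0.29 and 0.22. ANXA6 had a difference of 0.01 under the same total and ANXA11 of -0.01, so no direction is given for them.

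**Figure D4:**
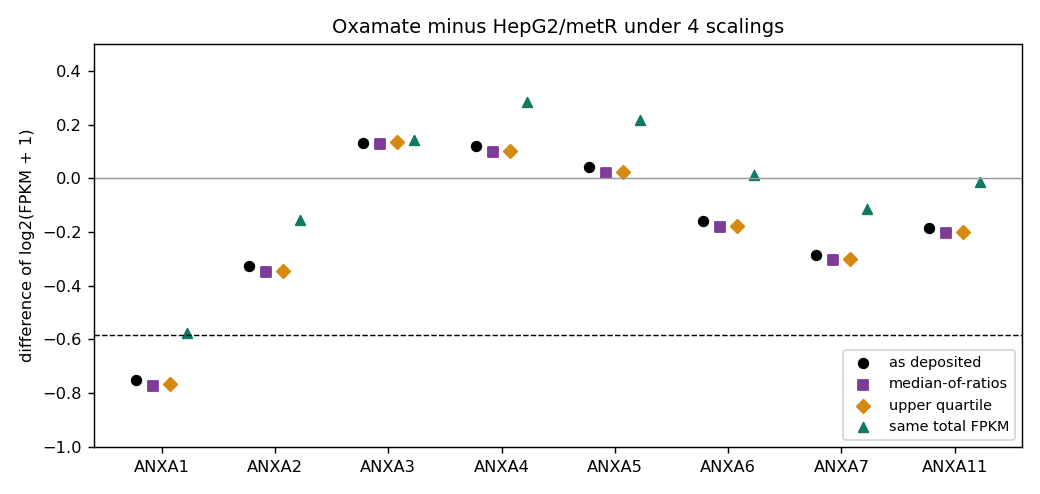
Difference of log2(FPKM + 1) between oxamate-treated and untreated HepG2/metR (y axis) for the 8 annexins that passed the filter (x axis) under 4 scalings of the libraries, with a dashed line at 1.5-fold lower. ANXA1 is the lowest under all 4, at -0.75 as deposited and at -0.58 with the same total FPKM, which is just above the dashed line.

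The partners of the annexins were followed next, in lists written with earlier results of these data known. Among the S100 proteins, small calcium-binding dimers that dock on annexin tails, S100A10 was listed at 65.1 FPKM in HepG2/wild, 215 in HepG2/metR and 225 with oxamate. S100A11, which binds ANXA1, was listed at 83.8, 546 and 471 FPKM. S100A6, which binds ANXA11, was listed at 149, 699 and 676 FPKM. In HepG2/metR these 3 of the 4 partners exceeded 2-fold, against 16.6% of all genes that passed, with differences of 1.71, 2.69 and 2.22 on the log2(FPKM + 1) scale for S100A10, S100A11 and S100A6. S100A4, an S100 protein tied to cell motility, went the opposite way at 38.9, 1.30 and 3.41 FPKM, and was the 1 S100 partner past 1.5-fold with oxamate, higher by 0.94. Counts among 4 genes are too small to be read against shares over all genes.

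The receptors of ANXA1 were not seen, since FPR1, FPR2 and FPR3 were each listed at 0 in all 3 libraries. Of the 6 cytosolic phospholipase A2 genes only PLA2G4B passed the filter, at 0.178, 1.76 and 3.26 FPKM. PLA2G4B was at least 2-fold higher in HepG2/metR and at least 1.5-fold higher with oxamate, by 0.63 on the log2(FPKM + 1) scale. PLA2G4A, at 0, 1.20 and 0.959 FPKM, and PLA2G4C, at 0.0895, 0.861 and 1.19 FPKM, failed the filter on their mean over the libraries. The remaining genes of the list stayed under 0.1 FPKM in every library.

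Of 8 genes around plasminogen, which ANXA2 and S100A10 gather at the cell surface, 7 passed the filter. In HepG2/metR 5 of the 7 were higher by 2-fold or more and 0 were lower, against 16.6% and 17.6% of all genes that passed. The median difference of the 7 was 3.20, beside 0.02 over all genes. No count or median of this list is read against all genes, because the list was written with earlier results of these data known. PLG itself, which encodes plasminogen, was listed at 0.365, 0 and 0 FPKM. PLAT, the tissue activator, was listed at 0.413, 34.1 and 23.8 FPKM. PLAU, the urokinase, was listed at 4.35, 107 and 44.4 FPKM, and its receptor PLAUR at 3.22, 45.6 and 31.7 FPKM. With oxamate 2 of the 7 (PLAU and ENO1) were at least 1.5-fold lower, against 3.82% of all genes that passed, by -1.26 and -0.70 on the log2(FPKM + 1) scale, and with the same total FPKM 1 of them, PLAU, still passed.

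Of 16 membrane repair genes 15 passed the filter. In HepG2/metR 7 were higher by 2-fold or more, 1 (CHMP4A) was lower and 7 did not pass, against 16.6% higher and 17.6% lower over all genes that passed. Their median difference was 0.43. As with the plasminogen list, nothing is read from the counts, since these genes were also listed with earlier results known. CAV1, the main coat protein of caveolae, was listed at 0.152, 346 and 305 FPKM, and CAV2 at 0.228, 41.7 and 45.5 FPKM. MYOF, which encodes myoferlin, a ferlin that fuses vesicles to the membrane, was listed at 0.693, 77.7 and 92.1 FPKM. CHMP4A, an ESCRT gene, was listed at 106, 26.1 and 20.7 FPKM. The ESCRT genes CHMP4B, VPS4A and VPS4B were among those within 2-fold, with differences of -0.74, -0.64 and -0.07. With oxamate DYSF, which encodes dysferlin, was higher by 0.74 and PDCD6, a partner of ANXA11, lower by -0.67 on the log2(FPKM + 1) scale, and the other 13 did not pass 1.5-fold, against 4.30% higher and 3.82% lower over all genes. PDCD6 did not pass with the same total FPKM.

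Phosphatidylserine exposure, which ANXA5 detects, is set by flippases and scramblases. Of 12 genes of this process 11 passed the filter. In HepG2/metR 4 were higher by 2-fold or more and 1 lower, against 16.6% and 17.6% of all genes that passed. The median difference was 0.74. This list too was written with earlier results known, so its counts are not read against those shares. The flippase ATP8B1 was listed at 1.93, 15.4 and 15.9 FPKM, the flippase ATP11A at 15.4, 5.19 and 7.10 FPKM, and MFGE8, which encodes a secreted phosphatidylserine-binding bridge, at 8.89, 47.7 and 50.6 FPKM. The scramblase ANO6 was listed at 31.4, 22.0 and 32.8 FPKM, within both thresholds as deposited and past 1.5-fold with the same total FPKM. With oxamate 1 of the 11 (PLSCR4, higher by 1.11) passed 1.5-fold, against 4.30% higher over all genes.

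Copines are another family of calcium-dependent membrane-binding proteins. Of 9 genes 5 passed the filter, of which in HepG2/metR 2 were higher by 2-fold or more and 1 lower, against 16.6% and 17.6% of all genes that passed, and 0 passed 1.5-fold with oxamate. Counts among 5 genes are too small to be read against these shares. CPNE7 was listed at 0.0368, 29.6 and 36.3 FPKM, CPNE8 at 1.61, 8.40 and 11.1, and CPNE1 at 172, 36.0 and 36.1 FPKM.

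**Figure D5:**
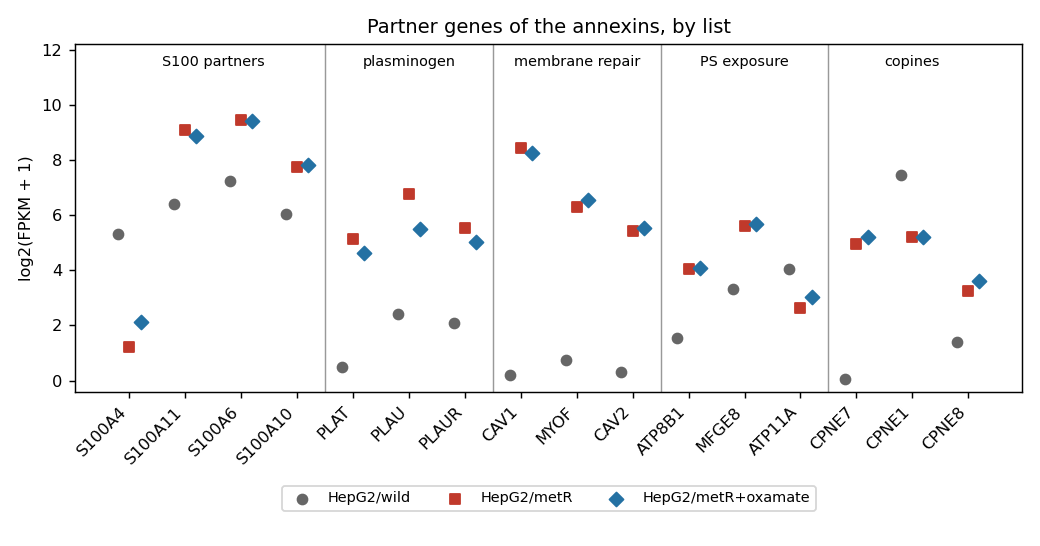
Levels as log2(FPKM + 1) on the y axis in the 3 libraries for the 4 S100 partners and for the 3 genes with the largest change in each of the plasminogen, membrane repair, phosphatidylserine and copine lists (x axis, grouped by list; PS, phosphatidylserine), with 1 point per library and no replicates. All of the plotted genes but S100A4, ATP11A and CPNE1 lie higher in HepG2/metR than in HepG2/wild, and PLAU shows the widest gap between HepG2/metR with and without oxamate.

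Other genes with the ANXA prefix were also listed. ANXA9, an annexin that lost calcium binding, was listed at 9.47, 0.126 and 0.0823 FPKM, a difference of -3.22 on the log2(FPKM + 1) scale in HepG2/metR. ANXA8 was listed at 0, 0.102 and 0.0797 FPKM and its near-identical copy ANXA8L1 at 0, 0.269 and 0.333 FPKM. These values are uncertain, since 81.2% of the 50-base words of ANXA8L1 also occur in ANXA8. ANXA2R was listed at 1.13, 2.10 and 2.63 FPKM, and ANXA2P1 and ANXA2P3 stayed under 0.1 FPKM in every library.

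The genes whose pattern was most like that of ANXA1 were found by the distance between the pairs of differences, over 3 libraries and 6497 genes with a mean of at least 10 FPKM. CAV1 was the nearest, at a distance of 0.63. It was followed by SRGN, the proteoglycan serglycin, at 0.118, 453 and 277 FPKM. Next came FXYD5, a regulator of the sodium pump, at 0.425, 244 and 200 FPKM. The hyaluronan receptor CD44 was listed at 0.152, 248 and 238 FPKM, and G0S2, an inhibitor of lipolysis, at 0.0551, 152 and 93.9 FPKM. With oxamate SRGN and G0S2 were past 1.5-fold lower, at -0.71 and -0.69 on the log2(FPKM + 1) scale. CAV1 at -0.18, FXYD5 at -0.29 and CD44 at -0.06 did not pass, so they resemble ANXA1 mainly in the HepG2/metR difference. With a pseudocount of 0.1 in place of 1, 0 of these 5 genes remained among the nearest 5.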

How the data were processed

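The authors deposited 1 table per library with 1 log2 value per gene symbol. Their unit was taken as log2(FPKM + 1), which is an inference. Within the tolerance used, 100% of the 34419 back-transformed values above 1 had at most 6 significant digits. Most such values would meet that tolerance under any unit, so the check cannot decide the unit. The submitters' processing notes name STAR 2.5.1b, FastQC 0.11.5, Cufflinks 2.2.1 and hg19, with no role or order, and the annotation is not given in the sources used here. Of the 25270 symbols, 28 had been turned into dates and were not used by name. Values were used without further scaling. With 1 library per group nothing was tested: genes with a mean of at least 1 FPKM were called at 2-fold (HepG2/metR) or 1.5-fold (oxamate), and the calculation was tested on simulated data. Relative depth was the modal ratio between libraries over values below 0.15 FPKM.

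The members, the partner lists and the rule for named genes (all members, all S100 partners and receptors, and the 3 largest changes of each other list) were chosen with earlier results of these data known. Genes named for a count of 5 or fewer fall outside that rule and were named after their values were seen. The same holds for the copies and pseudogenes, PLA2G4A, PLA2G4C, ANO6 and the ESCRT genes. 1 hepatocyte marker and 1 motif are not reported here. Other settings were pseudocounts, filters and scalings. Python 3.11, numpy 2.4.6, pandas 2.3.3 and matplotlib 3.10.9 were used.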

Additional observations from a re-analysis of the deposited data

How the results depend on the processing

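Of the 10 annexins, 3 were higher by 2-fold or more in HepG2/metR under 8 alternatives, and 4 were higher by 1.5-fold or more. The 2 at least 2-fold lower became 1 without a pseudocount, where ANXA3 has no value, and 1 with a mean of at least 5 FPKM, which ANXA3 does not reach. The 1 at least 1.5-fold lower with oxamate (ANXA1) became 0 with the same total FPKM, 0 with the same total FPKM of genes other than small RNAs (chosen after seeing the data) and 0 at 2-fold. The 0 at least 1.5-fold higher became 1 (ANXA3) with a pseudocount of 0.1, on values of 0 and 0.0946 FPKM. The median difference in HepG2/metR of the annexins that passed, 0.47, was 0.14 with no filter, 0.78 without a pseudocount and 0.77 with a mean of at least 5 FPKM. Over all genes a mean of at least 5 FPKM gave 1249 higher and 1428 lower in HepG2/metR, in place of 2021 and 2147. With oxamate the 525 higher became 1018 with a pseudocount of 0.1, 1111 with none, 271 with a mean of at least 5 FPKM, 1184 with the same total and 1289 with the same total without small RNAs, and the 466 lower became 192 and 173 under the last 2. Upper-quartile scaling moved the median of all genes by 0.13 in HepG2/metR. In the plasminogen list the 2 lower with oxamate became 1 and the 0 higher became 1 under both same-total scalings, in the membrane repair list the 1 lower became 0 and the 1 higher became 2, and in the phosphatidylserine list the 1 higher became 2. That last count was also 2 with no filter and 0 with a mean of at least 5 FPKM. PLA2G4B failed that filter, and with no filter PLA2G4A was counted as higher too, which made 2. No paired analysis was possible because each group holds 1 library. The number of reads is unknown, so no counting interval is given.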

Other observations

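These values were looked at after the levels had been seen. The 8 annexins other than ANXA1 and ANXA2 summed to 521 FPKM in HepG2/wild, 513 in HepG2/metR and 498 with oxamate. ANXA3 and ANXA4 were lower in HepG2/metR, while ANXA11, and within 2-fold ANXA5 and ANXA6, were listed higher. The largest part of each sum was ANXA5, at 269, 302 and 311 FPKM. ANXA2 and S100A10, whose products form a complex, were listed at nearly the same FPKM in HepG2/wild, with a ratio of ANXA2 to S100A10 of 1.01, whereas the ratio was 10.5 in HepG2/metR and 8.03 with oxamate. The ratio of ANXA1 to S100A11 was 0.0239, 1.38 and 0.951 in the same order.

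In the gene order of RefSeq, the protein-coding neighbours of ANXA1 that the tables list did not move with it. ALDH1A1, a retinaldehyde dehydrogenase gene, was listed at 278 FPKM in HepG2/wild, 0.219 in HepG2/metR and 0.0919 with oxamate, and RORB stayed under 0.1 FPKM in every library. ANXA3 lies between FRAS1 and BMP2K. FRAS1 was lower as well, at 12.6, 0.0196 and 0.0255 FPKM, while BMP2K differed by -0.44 on the log2(FPKM + 1) scale. MAT1A, the liver methionine adenosyltransferase gene beside ANXA11, was listed at 42.8, 0.0316 and 0.0309 FPKM.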
